A study of Drosophila melanogaster with 120 samples.

Results

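The mitochondrial ribosomal proteins of Drosophila melanogaster were followed across both sexes and 15 genetic lines of whole adult flies. A gene was taken as a member when its current symbol started with mRpL, for the large subunit, or mRpS, for the small subunit, a rule that uses no measured value. The arrays carried 71 probe sets that belonged to such a gene alone. These are called transcripts here, and they covered 69 of the 11981 genes measured. Of the 73 genes with such a symbol in RefSeq, mRpS10 and mRpL53 were measured only together with another gene, and mRpL34 and mRpL37 were matched to none.

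Mitochondria keep ribosomes of their own, which translate the few proteins encoded by mitochondrial DNA, all of them subunits of the respiratory chain and the ATP synthase. The proteins of these ribosomes are encoded in the nucleus, made in the cytoplasm and imported. Some have counterparts in the bacterial ribosome, and the rest were added during the evolution of mitochondria. In flies the ovary fills each egg with mitochondria, muscle relies on them for energy, and the developing sperm fuses and reshapes its own.

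The data are 120 arrays, 1 for each sample of 6 whole flies, with 4 samples for each sex of 15 hemiclonal lines named H07, H09, H10, H12, H13, H14, P07, P13, P15, P18, P22, P26, P48, P50 and P56. Flies of a line share 1 haploid genome, set against random genomes of the outbred LHM population in which all of them were made. Males came from mothers with a double X chromosome [C(1)DX, y, f] and so had no X but that of the line, while females came from LHM mothers and had a further X from the population. Adults were kept with tester flies of the other sex from day 12 for 24 h, sorted 20 h later and frozen 4 h after sorting, on day 14 and after 4 days of adult life. The lines had been chosen by the study for their male and female fitness, but the fitness of each named line is not given in the sources used here. Beyond whole bodies no tissue was separated, so more cells of a type and more RNA per cell cannot be told apart.

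Values are log2 levels computed by the authors with RMA (Robust Multichip Average), on which a difference of 1 is a factor of 2. The level of a probe set depends on its probes, so levels served to choose some of the genes to describe and are not compared between genes. The median of all transcripts on an array ran from 5.69 to 5.82 in females and from 6.28 to 6.45 in males, a sex difference of 0.64 in favour of males, and the median of the cytoplasmic ribosomal proteins differed by 0.72 in the opposite direction. Directions between the sexes were therefore also examined after centring every array on one or the other, and members whose direction or call depends on this are named below. A call means a false discovery rate of 0.001 over all 18769 transcripts.

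Nearly every member was higher in females on the RMA scale, where 70 of the 71 members were called and all 70 were higher in females, in each of the 15 lines. The background was wide, since 91.4% of all transcripts were called for sex on this scale, 60.9% of all as higher in females and 30.5% of all as higher in males. After centring on the array median all 71 members were called higher in females, against 73.6% of all transcripts. After centring on the cytoplasmic ribosomal proteins 50 members were higher in females, against 21.4% of all transcripts, and 12 in males, against 72.1%. On the RMA scale the members also differed from the background in size. Of the 71 members, 46 were called and at least 2-fold higher in females, against 20.4% of all transcripts, and for 66 the lowest of the 60 female arrays lay above the highest of the 60 male arrays, against 24.8% of all transcripts. The median male minus female difference was -1.24 over members and -0.27 over all transcripts.

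The members whose call depends on the scaling are these. After centring on the cytoplasmic ribosomal proteins the 12 called higher in males were mRpL28 (0.72), mRpS33 (0.46), mRpL51 (0.41), mRpS5 (0.40), mRpL24 (0.32), mRpS21 (0.32), mRpS9 (0.25), mRpL2 (0.24), mRpL42 (0.23), mRpL41 (0.19), mRpL27 (0.15) and mRpS17 (0.14). The 9 not called were mRpS6 (-0.17), mRpL33 (-0.12), mRpS7 (-0.10), mRpL40 (-0.03), mRpL16 (-0.02), mRpS14 (-0.01), mRpS22 (-0.00013), mRpS18C (0.06) and mRpL36 (0.08). The other 50 transcripts were called higher in females under each of the 3 scalings.

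**Figure D1:**
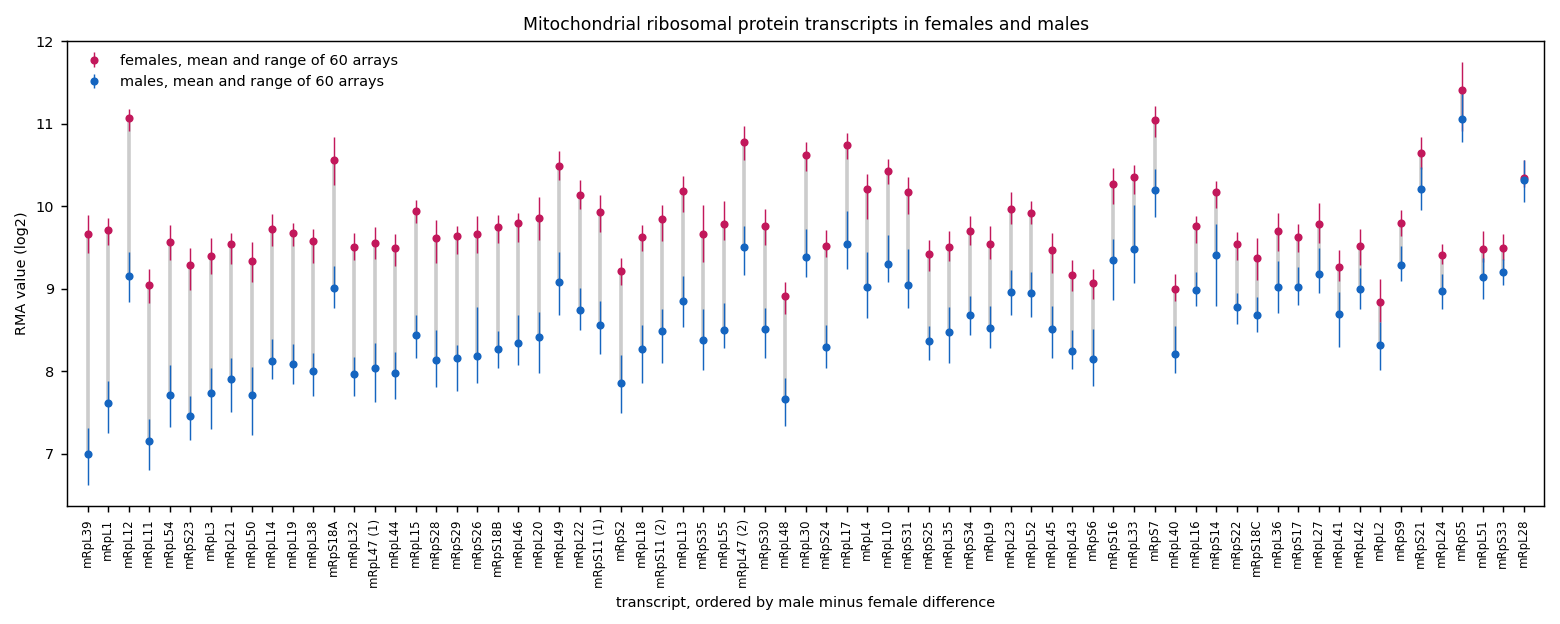
Level of each of the 71 mitochondrial ribosomal protein transcripts (log2, vertical axis) in females and males, ordered by the sex difference; points are means and lines the lowest and highest of 60 arrays. On this scale the ranges of the sexes overlap for 5 transcripts, among them mRpL28 at the right end, and after centring on the cytoplasmic ribosomal proteins 12 transcripts were called higher in males.

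The widest sex difference belonged to mRpL39, a large subunit protein without a bacterial counterpart. Its lowest, median and highest array were 9.44, 9.66 and 9.89 in females and 6.62, 6.995 and 7.31 in males. Females were 6.36-fold higher (male minus female -2.67, SE 0.025 over 15 lines, adjusted p = 2.4e-20), and the 2 sets of arrays were separated by a gap larger than the range of either. The gene mRpL1 encodes the protein of the mobile stalk through which used transfer RNA leaves a ribosome. It ran from 9.53 through 9.71 to 9.86 in females and from 7.25 through 7.61 to 7.88 in males, a 4.30-fold difference (-2.11, SE 0.027, adjusted p = 7.3e-19).

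Proteins of the other stalk, at which translation factors dock, followed. The stalk protein mRpL12 had array values of 10.91, 11.07 and 11.18 in females (lowest, median, highest) and 8.83, 9.16 and 9.44 in males, without overlap. The female level was 3.74-fold higher (-1.90, SE 0.020, adjusted p = 7.1e-20). mRpL11, which anchors that stalk, had array values of 8.83, 9.04 and 9.24 in females and 6.80, 7.15 and 7.41 in males, again without overlap. It was 3.73-fold higher in females (-1.90, SE 0.018, adjusted p = 2.7e-20). The mitochondria-specific mRpL54 completed the 5 widest differences, with 9.34, 9.57 and 9.77 in females and 7.33, 7.71 and 8.08 in males. Its difference was 3.62-fold (-1.85, SE 0.036, adjusted p = 1.1e-16). All 5 kept their direction and their call under both centrings.

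Between these ends the other members can be read by their place on the ribosome, as known from bacteria or mammals; these groupings were made after the values had been seen. mRpL10, the remaining stalk protein, differed less than its partners, by -1.13 (SE 0.020). Around the site where peptide bonds form, mRpL3 had a difference of -1.66, mRpL4 -1.18, mRpL16 -0.78, mRpL27 -0.60 and mRpL2 -0.51. Near the exit of the tunnel through which the new chain leaves, the values were -1.39 for mRpL22, -1.19 for mRpL17, -1.001 for mRpL23 and -0.43 for mRpL24. mRpL45, whose mammalian counterpart ties the ribosome to the inner membrane, had -0.96. Of 4 additions on the central protuberance of the large subunit in mammals, mRpL38 (-1.57), mRpL46 (-1.45) and mRpL48 (-1.25) lay close together and mRpL40 (-0.79) was lower. These are differences on the RMA scale, and those of mRpL16, mRpL27, mRpL2, mRpL24 and mRpL40 are among the calls that depend on it.

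At the other end stood mRpL28, which alone was not called on the RMA scale. Its array values were 10.23, 10.34 and 10.56 in females and 10.06, 10.31 and 10.56 in males, so the sexes overlapped almost completely. The difference was -0.03 (SE 0.023, adjusted p = 0.17), with males higher in 4 of the 15 lines. The next 4 genes differed little, and their direction depends on the scaling: mRpS33 (-0.29, SE 0.020), mRpL51 (-0.34, SE 0.017), mRpS5 (-0.35, SE 0.042) and mRpL24 (-0.43, SE 0.016) were higher in females on the RMA scale and higher in males, by 0.46, 0.41, 0.40 and 0.32, after centring on the cytoplasmic ribosomal proteins. The arrays of both sexes overlapped for mRpS33, mRpL51, mRpS5 and mRpS21, and were separate for mRpL24.

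mRpS7, a small subunit protein with a bacterial counterpart, ran from 10.84 through 11.06 to 11.22 in females and from 9.87 through 10.21 to 10.45 in males (-0.86, SE 0.023, adjusted p = 6.1e-15). The sexes did not overlap on the RMA scale, and the difference was not called after centring on the cytoplasmic ribosomal proteins. mRpS21 also has a bacterial counterpart, and it had 10.46, 10.64 and 10.84 in females and 9.96, 10.21 and 10.47 in males, with the ranges overlapping slightly (-0.43, SE 0.018, adjusted p = 2.4e-12); it turned to 0.32 higher in males after centring on the cytoplasmic ribosomal proteins.

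Both subunits shared the pattern on the RMA scale. By the letter of the symbol, 44 of 45 large subunit transcripts and 26 of 26 small subunit transcripts were called higher in females, against 60.9% of all transcripts. Their median differences were -1.28 and -1.09. The members called higher in males after centring on the cytoplasmic ribosomal proteins came from both subunits. In mammals the counterparts of mRpS18A and mRpS30 sit in the large subunit despite their names, and these genes had differences of -1.55 and -1.25. The 41 transcripts numbered as bacterial proteins (up to L36 and S21) had a median difference of -1.18, and the 30 with higher numbers, most of them additions of mitochondria, had -1.26. The range within each of these classes was several times wider than the distance between their medians.

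Several members have roles beyond the ribosome's core. mRpS29 is the fly counterpart of DAP3, a GTP-binding protein first described in cell death, and it was 2.79-fold higher in females (-1.48, SE 0.023, adjusted p = 9.1e-18). mRpL44 carries a fold related to ribonuclease III and was 2.84-fold higher (-1.51, SE 0.026, adjusted p = 2.8e-17). The 3 relatives of the bacterial small subunit protein S18 diverged in size, with differences of -1.55 for mRpS18A, -1.47 for mRpS18B and -0.70 for mRpS18C; the first 2 stayed higher in females under both centrings, and mRpS18C moved to 0.06 after centring on the cytoplasmic ribosomal proteins.

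The members were also compared by chromosome, without a test. The 11 members on the X, of which males have 1 copy, had a median difference of -1.25 and the 60 autosomal members -1.21. All 11 were higher in females without overlap of the arrays on the RMA scale, against 24.8% of all transcripts. They ran from mRpL3 (-1.66), mRpL14 (-1.59) and mRpL38 (-1.57) through mRpL49 (-1.41), mRpL22 (-1.39), mRpS30 (-1.25), mRpL30 (-1.24) and mRpS25 (-1.06) to mRpL33 (-0.87), mRpL16 (-0.78) and mRpS14 (-0.77). These last 3 were no longer called after centring on the cytoplasmic ribosomal proteins. On the autosomes the medians were -1.15 on arm 2L, -0.95 on 2R, -1.29 on 3L and -1.28 on 3R. On the RMA scale 4 of 10 members on 2R and 13 of 17 on 3L were called and at least 2-fold higher in females, against 20.4% of all transcripts.

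The size of the sex effect also varied from line to line. The median member on an array ran from 9.57 through 9.68 to 9.77 in females and from 8.36 through 8.56 to 8.71 in males, so a wide gap separated the sexes. Taken by line, the male median lay below the female median by 2.39-fold in H14, by 2.32-fold in P48 and by 2.26-fold in H09 at one end, and by 2.10-fold in H13, 2.04-fold in P18 and 2.02-fold in P26 at the other.

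**Figure D2:**
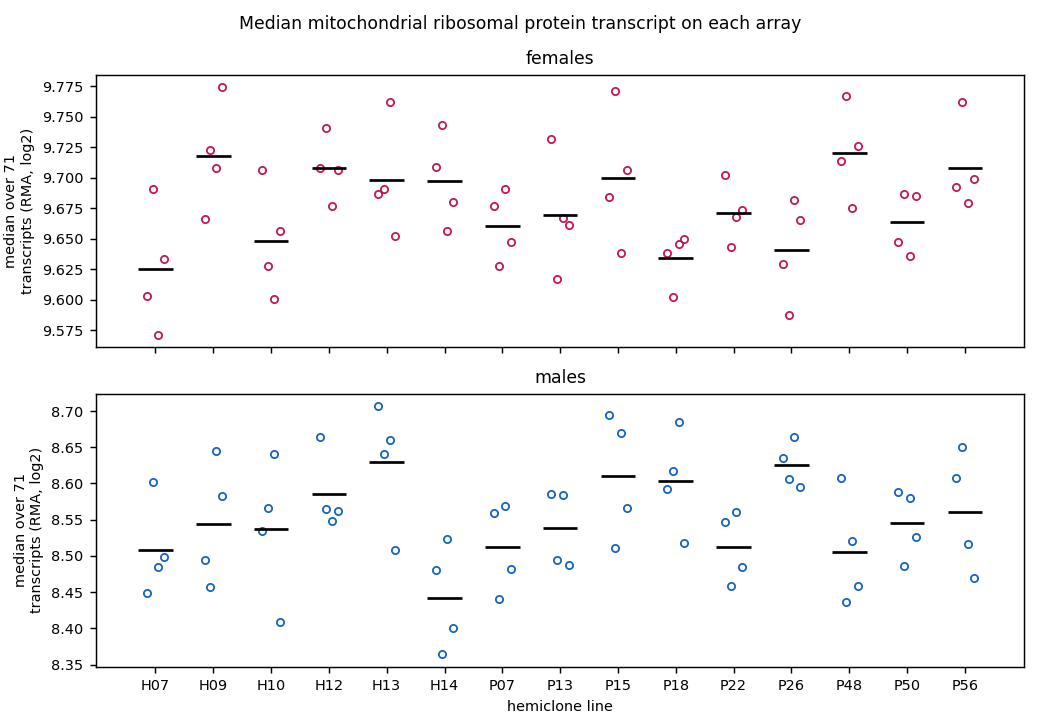
Median level of the 71 transcripts on each array (circles, log2, vertical axes of different range) and the mean of 4 arrays (bars) for each line, females above and males below. No female array lies below 9.57 and no male array above 8.71, and H14 has the lowest male mean.

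The rest of the machinery for making proteins in mitochondria mostly shared the female excess. The ribosomal proteins tko and bonsai, which carry no mRp symbol, had male minus female differences of -1.503 and -1.54. tko, named technical knockout for its seizure-prone mutants, had array values from 10.42 to 10.79 in females and from 8.81 to 9.31 in males. bonsai, which is needed for growth, had values from 10.26 to 10.61 in females and from 8.58 to 9.15 in males. Both differences were wider than the members' median of -1.24, and neither overlapped between the sexes.

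Among the translation factors 7 of 9 genes were higher in females, with the largest differences for the elongation factor mEFG1 (-2.12, SE 0.022) and the initiation factor mIF3 (-2.05, SE 0.042). The elongation factor mEFTu2 and its exchange factor mEFTs went the other way, by 0.84 and 1.11, in 15 of 15 lines. Of 17 genes for enzymes that charge mitochondrial transfer RNA and their kin, 13 were higher in females and 3 in males. GluRS-m (-2.65) and IleRS-m (-2.44) showed the largest female excess, and CysRS-m (2.21) and TrpRS-m (1.82) the largest male excess. These 8 directions held under both centrings.

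Genes that copy, transcribe and process mitochondrial DNA and RNA were higher in females without exception, in 12 of 12 genes and with a median difference of -1.66. The replicative helicase mtDNA-helicase differed by -3.93 and the single-strand binding protein mtSSB by -3.88, more than any mitochondrial ribosomal protein. All 4 genes listed as regulators of mitochondrial genes (Dref, Ets97D, ewg and clu) were higher in females by their brighter transcript. The transcription factors Dref (-2.78) and Ets97D (-2.25, the fly counterpart of GABPA) led. The brighter transcript of ewg differed by -1.80 and that of clu by -1.48. The dimmer of the 2 transcripts of ewg was higher in males on the RMA scale, by 0.35.

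The respiratory chain and ATP synthase, whose mitochondrial subunits these ribosomes make, went the opposite way. On the RMA scale 66 of its 71 genes measured were called higher in males (median difference over the group 0.86) and 2 higher in females; after centring on the array median the 80 transcripts split into 43 higher in males and 24 in females, and after centring on the cytoplasmic ribosomal proteins all 80 were higher in males. A comparison within arrays does not depend on the centring. The median member minus the median respiratory transcript of the same array fell by 2.02 on the log2 scale from females to males (SD 0.081, 15 lines), with line values from -2.14 to -1.88.

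The cytoplasmic ribosomal proteins lay between these groups. On the RMA scale 34 of 41 genes were higher in females and 7 in males, with a median difference of -0.57. After centring on the array median 39 of 47 transcripts were higher in females and 8 in males. Centring on their own median left 30 higher in males and 9 in females. That split cannot show a direction for the group, since the group's own median was subtracted from every array. Set against the median cytoplasmic ribosomal protein of the same array, the median member was lower in males than in females in all 15 lines (mean -0.37, SD 0.11, line values from -0.52 to -0.20).

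**Figure D3:**
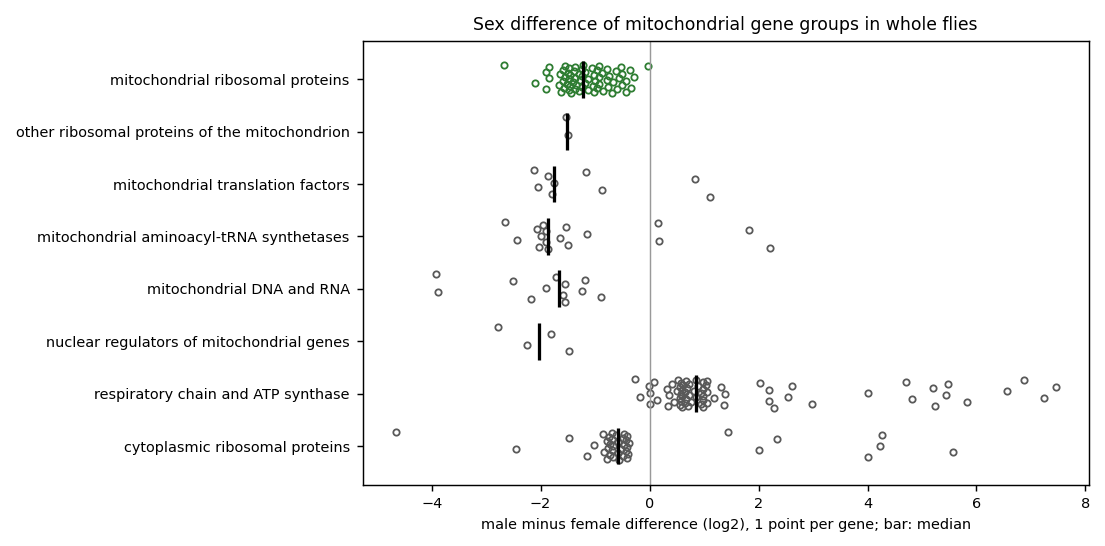
Male minus female difference (log2, horizontal axis) of each gene of the mitochondrial ribosomal proteins and of 7 other groups; bars are medians. The ribosomal, translation, and DNA and RNA genes lie mostly below 0 and the respiratory chain mostly above it. After centring on the cytoplasmic ribosomal proteins 12 of the 71 member transcripts were called above 0. That centring cannot show a direction for the cytoplasmic ribosomal proteins themselves. After centring on the array median 24 respiratory transcripts were called below 0.

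Markers of the tissues also differed. All 6 female germ line genes (osk, orb, nanos, otu, bcd, vas) were higher in females, with a median difference of -8.04, and their median ran from 11.08 to 11.57 on female arrays and from 3.46 to 4.36 on male arrays. All 5 eggshell and yolk genes were higher in females as well, with differences from -8.83 to -7.31. Of 6 male germ line genes 5 were higher in males, and CycB3 was higher in females (-3.504). All 3 accessory gland genes were higher in males, and the 4 muscle genes and the 3 nervous system genes were too, by 2.05 to 2.67 and by 1.25 to 2.35. Of 3 fat body genes, Lsp2 was higher in males and Fbp1 and Fbp2 in females. The part of tissue composition in the sex difference of the members was not tested.

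Differences between lines were smaller than those between the sexes and were called more often in males. In males 24 of 71 members (33.8%) were called for a difference between lines, against 27.3% of all transcripts. In females 9 of 71 (12.7%) were called, against 8.36% of all transcripts, and 6 members were called in both sexes. Neither count stood clear of the background under every alternative. With dim transcripts left out (mean level under 5), 35.2% of the members and 40.4% of all transcripts kept were called in males, and 12.7% and 12.9% in females. The count in males was 19 (26.8%) without H07, H09 or H14, against 22.5% to 26.02% of all transcripts, and in females it was 5 (7.04%) without P26, against 7.75%. Without 1 replicate number it was 11 to 13 in males (15.5% to 18.3%, against 12.9% to 17.0% of all transcripts). In females it was then 1 to 4 (1.41% to 5.63%, against 3.51% to 4.82%). After centring on the cytoplasmic ribosomal proteins it was 42 in males (59.2%, against 48.6% of all transcripts) and 4 in females (5.63%, against 7.84%). The median share of the variance that lay between lines was 34.7% in males and 26.3% in females, against 21.3% and 8.13% over all transcripts. Line means were spread by a median SD of 0.084 in males and 0.054 in females, less than over all transcripts (0.101 and 0.088). The spread was wider in males for 63 of the 71 members. Replicates too varied more in males (median SD 0.097) than in females (0.069), while over all transcripts the order was the reverse, 0.144 and 0.158. The larger shares of the members thus went with smaller spreads, of lines and of replicates, than over all transcripts.

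The largest share in males belonged to mRpS35, a small subunit protein added in mitochondria, at 83.4% (adjusted p = 2.7e-13). P18 and H09 had the lowest male line means, 8.10 and 8.11, and P26 the highest, 8.70, followed by P50 with 8.55. That is a 1.52-fold range, and females shared its ends. Their line means ran from 9.46 in P18 to 9.93 in P26, with the next at 9.77 in P15, and lines took 56.02% of the variance (adjusted p = 3.7e-05). Without P26 the female share was 36.02% and no longer called, while the male share stayed between 79.1% and 86.7% whichever line was left out.

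mRpL33, a large subunit protein with a bacterial counterpart that is encoded on the X, had 80.5% of its male variance between lines (adjusted p = 5.8e-12). The line H12 stood highest at 9.95 (SD 0.057), and its lowest array, 9.89, lay above the highest array of any other line, 9.83. H14 came next at 9.77, and H07 was lowest at 9.13, a 1.77-fold range. In females, the line means ran only from 10.25 to 10.45 and lines took 29.0% of the variance, which was not called.

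mRpS26, another mitochondrial addition, was set by 1 line in males. Its male line mean was 8.67 in H13 (SD 0.071) and between 8.03 and 8.30 in the other 14, and the lowest H13 array, 8.62, lay above the highest array of the others, 8.43. The share of 63.3% (adjusted p = 5.7e-07) fell to 21.9% without H13 and was then not called. H13 was also the highest line in females, at 9.83 against 9.75 for H09, and P18 the lowest, at 9.50. Lines took 64.5% of the female variance (adjusted p = 9.9e-07), the largest share among the members in that sex, and the call held whichever line was left out.

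**Figure D4:**
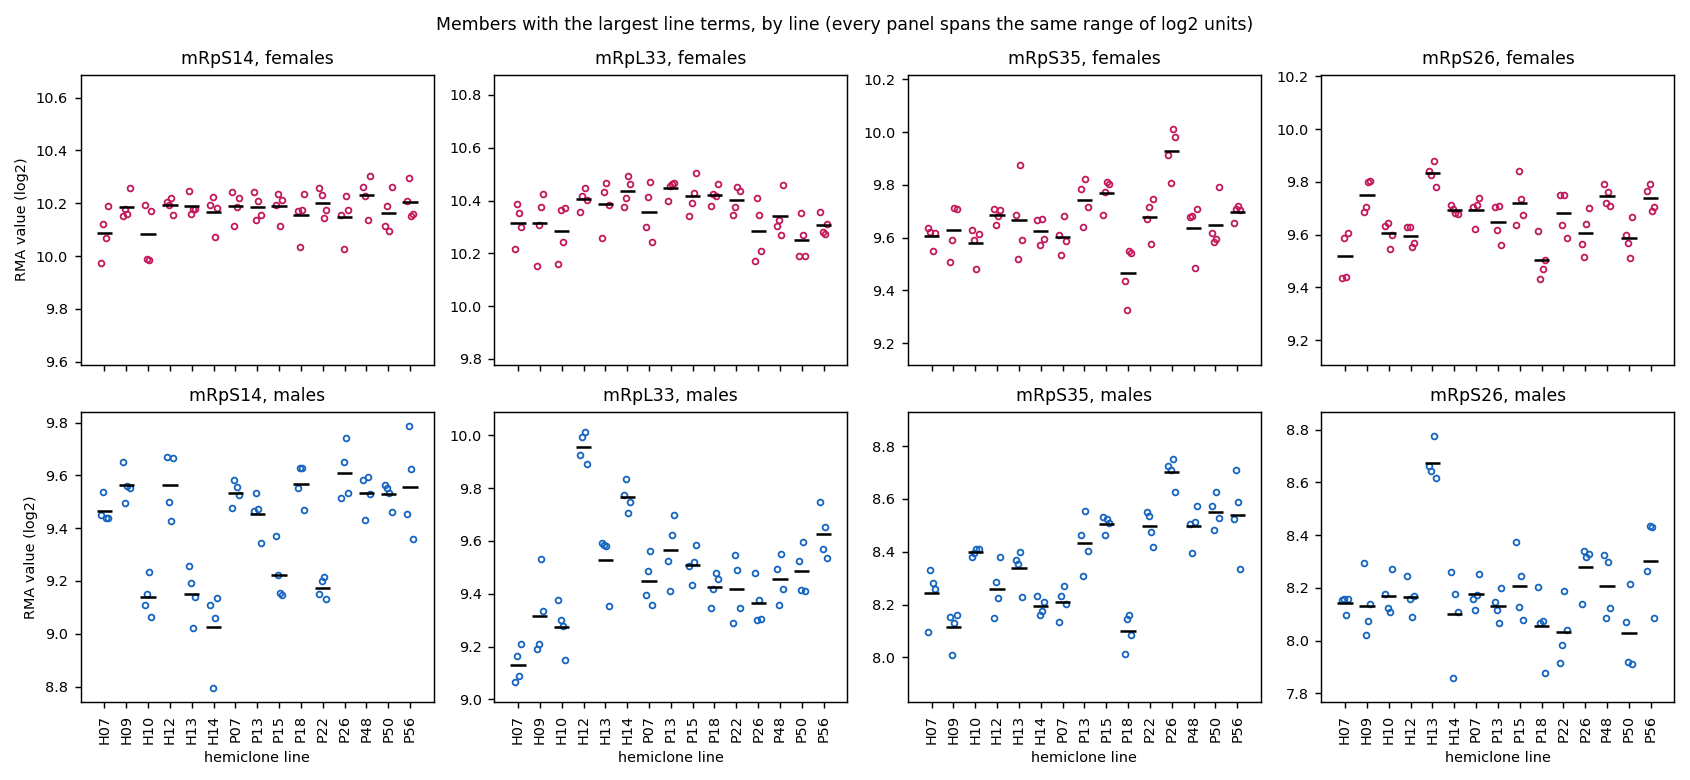
Array values (circles, log2, vertical axes spanning the same number of units) and means of 4 arrays (bars) of mRpS14, mRpL33, mRpS35 and mRpS26 in each of the 15 lines, females above and males below. Male mRpS14 falls into 5 low and 10 high lines, mRpL33 is highest in H12 and mRpS26 in H13 males, and mRpS35 is highest in P26 in both sexes.

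With mRpS35, mRpL33 and mRpS14 (80.0%, described below), mRpS16 and mRpL17 made up the 5 largest male shares, and mRpS26 (63.3%) came next. Both mRpS16 and mRpL17 have counterparts in bacteria. mRpS16 had 64.0% (adjusted p = 4.1e-07), with H07 at 9.04 and H12 at 9.10 below the other lines, whose highest was P48 at 9.52. In females H07 was again lowest, at 10.14, and P48 highest, at 10.39. Lines took 49.6% of the female variance, a call lost without H07, H13 or P48. For mRpL17 lines took 63.7% in males (adjusted p = 4.6e-07), from 9.31 in H07 to 9.85 in P15, and the female means ran from 10.66 to 10.80.

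The other members called for line in males had smaller shares, from 62.1% down to 42.3%, and the lines at their ends recurred. H14 was lowest for mRpS28 (7.92, with P56 highest at 8.39), mRpL41, mRpL36 (8.85, with H09 highest at 9.20), mRpS6, mRpL48 and both transcripts of mRpL47 (7.74 and 9.33). H07 was lowest for mRpL30 (9.24, with P15 highest at 9.55), mRpL4 (8.82, with P15 at 9.21), mRpL20 (8.15, with P15 at 8.59) and mRpS2 (7.67, with P26 at 8.04). mRpS31 stood apart in P48 and P13, at 9.33 and 9.26 against 8.85 in H10, and mRpL40 in H07, at 8.44 against at most 8.29 in the other lines. mRpL55 was the reverse of most, with H10 highest, at 8.72, and P48 lowest, at 8.39. Of the 24 male calls, 13 held whichever line was left out, and 11 were lost without at least 1.

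In females the share of lines was next largest for mRpS11, at 56.4% (adjusted p = 3.2e-05), then mRpS35, given above, mRpL48 (50.3%) and mRpS18C (50.2%). mRpS11 is a small subunit protein with a bacterial counterpart. Its female line means were lowest in P26, at 9.77, and highest in P48, at 10.07, and without P26 the share was 42.2% and without P48 47.3%, neither of them called. mRpS18C was highest in H09 females, at 9.57, and lowest in H07, at 9.24. Without H09 its share was 31.4% and not called, and in males its line variance was estimated at 0. The large subunit addition mRpL48 ran from 8.78 in P26 to 9.03 in H12 in females, and its call was lost without H12 (43.6%), P18 (46.9%) or P26 (40.6%). Of the 9 female calls, only 1, that of mRpS26, held whichever line was left out, and 8 were lost without at least 1. The call of mRpS26 was lost without 1 of the replicate numbers.

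For some members the sex difference itself varied between lines. The sex-by-line term was called for 14 of 71 members (19.7%), against 9.87% of all transcripts, and its median share of the variance left after sex was 21.2% over members and 7.91% over all transcripts. With dim transcripts left out the margin was narrower, at 19.7% of the members against 14.5% of all transcripts kept. The count was 7 without H14 (9.86%, against 8.95% of all transcripts), 8 without H09 and 8 without P26 (11.3%, against 8.44% and 8.78%). With each replicate number left out in turn, the count was 4 to 6 (5.63% to 8.45%, against 4.58% to 5.42% of all transcripts). No member was called for a line effect common to both sexes by the restricted likelihood ratio test, against 0.282% of all transcripts; 11 had an unadjusted p under 0.05, and limma, whose test does not set the line effect against the sex-by-line variance, called 27.

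The largest such term was that of mRpS14, an X-linked gene for a conserved protein of the small subunit, at 68.2% (adjusted p = 4.7e-12), and lines took 80.0% of its variance in males (adjusted p = 8.7e-12). Its male line means fell into a low set and a high set. H14 (9.02), H10 (9.14), H13 (9.15), P22 (9.18) and P15 (9.22) were low, and after a step of 0.23 the other 10 lines ran from 9.45 to 9.61. In the 5 low lines the 4 arrays ran at most to 9.37, and in the other lines they started at 9.34. Female line means ran from 10.08 to 10.23 and did not follow this division, with 9.41% of the variance between lines. Females were thus 2.21-fold higher in H14 and 1.45-fold higher in P26.

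The neighbours of mRpS14 on the X were looked at after its values had been seen. Of the 3 genes on either side, CG32533 had its 5 highest male line means, 5.78 to 5.88, in the same 5 lines in which mRpS14 was low, and 5.49 to 5.71 in the other 10. Across the 15 male line means the 2 transcripts had r = -0.82, a description over points that share arrays. The other neighbours with values, kek5, narya, Naa15-16, pcm and ND-18, had r from -0.02 to 0.67 with mRpS14. For the kek5 transcript with r = 0.67, lines took 80.0% of the male variance, and its sex-by-line term (28.0%) was called too. Line in males was also called for narya (50.8%, at a male mean of 3.89), CG32533 (44.1%) and Naa15-16 (43.9%), and sex by line for none of these.

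On the X, 4 of the 11 members were called for sex by line, against 9.87% of all transcripts: mRpS14, mRpL33, mRpL49 and mRpL30. The term of mRpL33 took 49.6%, with H12 and H14 highest in males, while their female means, 10.41 and 10.44, lay within the range of the other lines, and the female excess ran from 2.27-fold in H07 to 1.37-fold in H12. The other 2, both of the large subunit, had smaller terms (mRpL49 37.4%, lost without any of 6 lines; mRpL30 34.3%, lost without any of 5 lines). In males 3 of the 11 were called for line, mRpL33, mRpS14 and mRpL30, against 27.3% of all transcripts. In females none was, against 8.36% of all transcripts. mRpL3, mRpL14, mRpL16, mRpL22, mRpL38, mRpS25 and mRpS30 were called for no line term. For these genes a sex-by-line term and the different X complement of the sexes, the line's X in males and that X with a further one in females, cannot be told apart.

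Of the 10 autosomal transcripts called for sex by line, mRpL41 had the largest share, at 51.7% (adjusted p = 8.5e-06). This large subunit addition was lowest in H14 males, at 8.48, and highest in H13 males, at 8.89, and the female means of these lines were 9.34 and 9.31. Without H14 the share was 34.7% and was not called. For mRpS6, with 48.3% (adjusted p = 4.2e-07), H14 was lowest in males, at 7.91, and H07 highest, at 8.31, while H07 was the lowest line in females, at 8.95. Females were 2.298-fold higher in H14 and 1.57-fold higher in H07. The term of mRpL17, 47.0%, was 36.7% and not called without P15, whose males stood highest. Of the other 7, mRpS2, mRpS28, mRpL47 and mRpL48 had their narrowest sex difference in P26 and their widest in H14 or H09, by -1.10 and -1.59 for mRpS2, -1.26 and -1.70 for mRpS28, -1.34 and -1.92 for mRpL47 and -1.001 and -1.44 for mRpL48. The same lines recurred beyond the called members: H14 had the widest difference of the 15 lines for 26 of 71 transcripts and H09 for 14, and P26 had the narrowest for 26. Members share their arrays, and the same counts over all transcripts are not given here.

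Members tended to rise and fall together. Across the 60 arrays of a sex, after removing line means, the median correlation over the 2485 pairs of members was 0.26 in females and 0.32 in males, and across the 15 line means it was 0.33 and 0.27. The mean correlation over all pairs of transcripts was 0.012 or less in each of these 4 settings. Arrays with the same replicate number shared part of this: the median member averaged 8.58, 8.53, 8.59 and 8.503 over the male arrays numbered 1 to 4, and 9.68, 9.69, 9.66 and 9.68 over the female arrays. With the means of these numbers removed as well, a step added after the values had been seen, the median correlation was 0.31 in females and 0.28 in males. These are descriptions, as the values of 2 members share their arrays, and members share a target only for mRpL47 and mRpS11, which had 2 transcripts each.

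Some lines stood low or high for many members at once. In males H14 was below the mean of the lines for 65 of 71 members and the lowest of the 15 lines for 24, while P15 was above it for 60 and the highest line for 20, and P26 was above it for 56. In females P48 was above the mean for 64 members and the highest line for 23, and H07 was below it for 64 and the lowest line for 20. The deviations were small, with medians of -0.10 for H14 males, 0.07 for P15 males, 0.08 for P26 males, 0.05 for P48 females and -0.06 for H07 females. P26 was above the mean for 56 members in males and below it for 53 in females. These counts are descriptions, as members share their arrays, and the same counts over all transcripts are not given here.

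**Figure D5:**
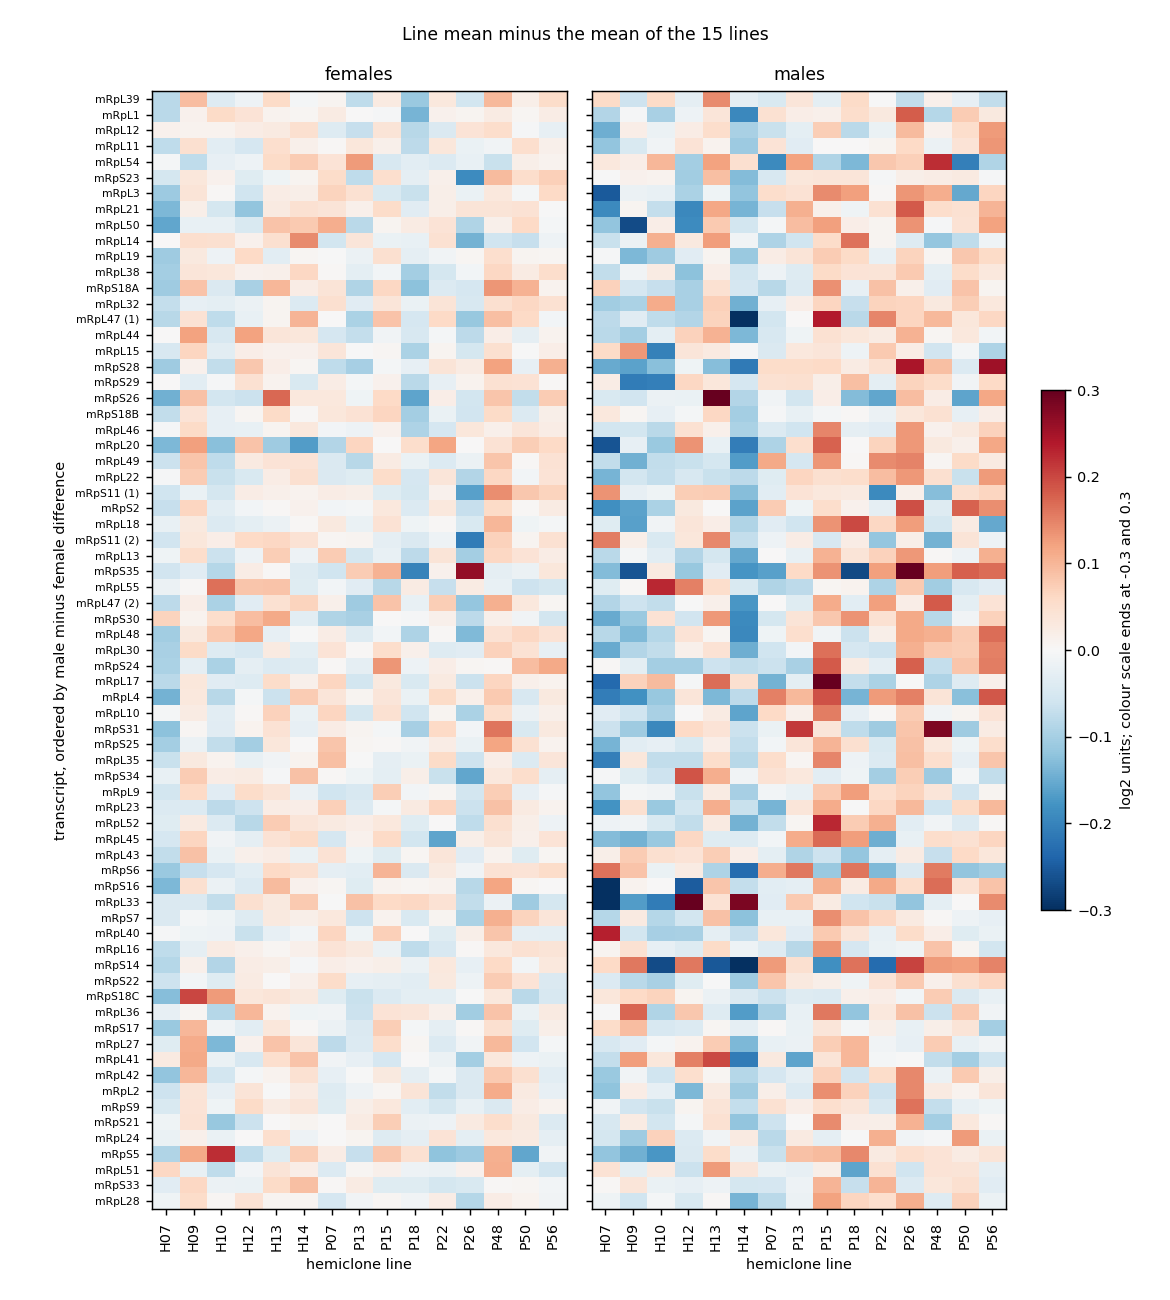
Line mean minus the mean of the 15 lines (colour, log2 units) for each of the 71 transcripts, ordered by sex difference, in females and males. The columns of H14 males and H07 females are mostly below 0 and those of P15 males and P48 females mostly above it, and the row of mRpS14 changes between lines in males but not to the same degree in females.

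Other gene groups differed between lines in part in parallel. Over the 15 line medians in females, the members followed the cytoplasmic ribosomal proteins (r = 0.82, rho = 0.72, and r = 0.77 without the 2 lines farthest from the median), and in males they did so little (r = 0.11, rho = 0.13). In males the values were 0.67 for the mitochondrial translation factors (rho = 0.74, and r = 0.64 without 2 lines), 0.50 for the mitochondrial aminoacyl-tRNA synthetases (rho = 0.65, and r = 0.68 without 2 lines) and 0.45 for the respiratory chain (rho = 0.32, and r = 0.47 without 2 lines). For the mitochondrial DNA and RNA genes the male value was 0.48 (rho = 0.55, and r = 0.26 without 2 lines). The female value was 0.65 for the synthetases (0.35 without 2 lines) and 0.49 for the DNA and RNA genes (-0.05). It was 0.31 for the respiratory chain (0.54) and 0.28 for the translation factors (-0.29). Across the 60 male arrays, after removing line means, the median member moved with that of the respiratory chain (r = 0.72, or 0.57 with the means of the replicate numbers removed too), the translation factors (0.58, or 0.44), the muscle markers (0.58, or 0.26) and the array median (0.44, or 0.39). In females the same values were -0.03 for the respiratory chain (-0.03) and 0.39 for the translation factors (0.51). They were -0.33 for muscle (-0.29) and -0.19 for the array median (-0.25). For the cytoplasmic ribosomal proteins the values were 0.50 in females (0.58) and 0.23 in males (0.20). For the synthetases they were 0.43 (0.51) and 0.38 (0.26), and for the mitochondrial DNA and RNA genes 0.39 (0.43) and 0.43 (0.34). The groups were measured on the same arrays, and these correlations are descriptions. H14 males, lowest for the members (8.44), had medians of 11.77 for the respiratory chain (median array 11.84) and 10.69 for muscle (10.84). Other male lines were lower, P56 (11.74) and H12 (11.75) for the respiratory chain and P50 (10.55) and P56 (10.63) for muscle. Their medians for the members were higher than in H14, at 8.56 in P56, 8.58 in H12 and 8.55 in P50. Over the 15 male line medians, members and muscle had r = 0.13 (rho = -0.007, and r = -0.015 without 2 lines). The part of tissue composition in the differences between lines and between arrays was not tested.

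Where a gene had 2 transcripts they ran in parallel. Those of mRpL47 differed between the sexes by -1.51 and -1.28, and their line means had r = 0.96 in females and 0.85 in males. Those of mRpS11 differed by -1.38 and -1.36, with r = 0.80 in females and 0.85 in males. The 2 transcripts shared with another gene were also higher in females, with differences of -1.70 where mRpS10 was measured with CG34316 and -0.68 where mRpL53 was measured with CG33155.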

How the data were processed

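Whole flies were measured on Affymetrix Drosophila Genome 2.0 arrays, which the authors processed with RMA in the affy package (background correction, quantile normalization and median polish); the deposited values are log2 levels, 1 for each of 18952 probe sets and 120 arrays. No array was left out. The 183 control probe sets were left out, leaving 18769. Probe sets were matched to genes through the platform annotation and RefSeq (13646 to 1 gene, 402 to several, 4721 to none). The study hybridised the arrays in 8 batches of equal size. Which batch held an array is not given in the sources used here, so no batch term was fitted and batch and group cannot be told apart; the 8 combinations of sex and replicate number also hold 15 arrays each, and whether they are the batches is not given. Precision is limited by the number of arrays.

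For each transcript the model was sex (fixed) plus line and sex by line (random), fitted by REML in closed form (numpy 2.4.6, scipy 1.17.1). Sex was tested by F with 14 residual degrees of freedom, and the random terms by restricted likelihood ratio tests against an equal mixture of chi-square distributions. The sexes were also fitted apart for the line term. P-values were adjusted by Benjamini-Hochberg over all 18769 transcripts and called at 0.001. The closed form was checked against lme4 1.1.37 on the 71 members, with the same calls in each term, and was tested on simulated data. Replicates are independent groups of flies, per the labels and methods.

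Alternatives were array centrings, dim transcripts left out (mean under 5), limma 3.58.1 (moderated tests), a false discovery rate of 0.05, a replicate block, replicates and lines left out in turn, 1 transcript per gene, and shared transcripts added; removing replicate means from correlations was added after seeing the data. The members and gene lists were chosen with earlier results of these data known. Genes were named by rule: the 5 largest and 5 smallest sex differences, the 3 highest and 3 lowest levels, the 5 largest shares of each line term, all X members, and from each list the 2 largest differences in each direction; other names were chosen after their values were seen. Samples of different lines with the same replicate number deviated together in part (median r of 0.07 in females and 0.12 in males). For other numbers the medians were -0.02 and -0.04. Of 420 same-number pairs in each sex, 184 had r over 0.1 in females and 240 in males. The numbers were not taken as pairs in the main model, and a replicate block was fitted as an alternative.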

Additional observations from a re-analysis of the deposited data

Results flagged for a closer look

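Of 120 groups of 4 arrays examined (the median member, mRpS35, mRpS26 and mRpS14 in each line and sex), 6 held an array set far apart from the other 3, and chance gives about 1 in 20. The gap to the nearest array was 0.855 of the whole range for the median member in H12 males, where 1 array was at 8.66 and the others between 8.55 and 8.56. It was 0.866 for mRpS35 in P48 females (9.48 against 9.68 to 9.71) and 0.845 in P50 females (9.79 against 9.58 to 9.62). It was 0.895 for mRpS26 in H07 males (8.10 against 8.15 to 8.16) and 0.879 in P26 males (8.14 against 8.32 to 8.34). For mRpS14 in H07 males it was 0.885 (9.54 against 9.44 to 9.45).

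The sex difference varied between lines, by the test of the sex-by-line term, in 14 members. The share of the variance left after sex was 68.2% for mRpS14, 51.7% for mRpL41, 49.6% for mRpL33, 48.3% for mRpS6, 47.0% for mRpL17, 43.4% for mRpS11, 42.1% for mRpL47, 42.0% for mRpL48, 40.8% for mRpS2, 37.4% for mRpL49, 34.3% for mRpL30, 33.3% for mRpS28, 25.5% for mRpS26 and 23.7% for mRpS35. For mRpS11 and mRpL47 this held for 1 of 2 transcripts. The calls of mRpS14, mRpL33, mRpS6 and mRpS35 held whichever line was left out, and each of the other 10 was lost without at least 1 line. With replicate numbers left out in turn, mRpS14 and mRpL33 held each time. The call of mRpS6 was then lost in 1 case and that of mRpS35 in 2.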

How the results depend on the processing

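The count of members higher in females (70) ran from 68 to 72 under every alternative but centring on the cytoplasmic ribosomal proteins, which gave 50, with 12 higher in males; elsewhere none was higher in males, by the F test or by limma, also at an unadjusted p under 0.05 in the main setting. The median sex difference of -1.24 was -1.87 after centring on the array median and -0.48 after centring on the cytoplasmic ribosomal proteins, and the latter turned mRpL24 (0.32), mRpS5 (0.40), mRpL51 (0.41), mRpS33 (0.46), mRpL28 (0.72), mRpS21 (0.32), mRpS18C (0.056, not called) and mRpL41 (0.19) to above 0 among the members named by rule, and mRpL2, mRpL27, mRpL36 (not called), mRpL42, mRpS9 and mRpS17 among the others, with values given in the results. That centring also gave 42 calls for line in males (24 in the main setting), 4 for line in females (9) and 31 for sex by line (14); the cytoplasmic ribosomal proteins themselves differed between male lines, with medians of 12.90 to 13.05 in the 6 H lines and 13.11 to 13.24 in the 9 P lines, and its part in these counts was not tested. A false discovery rate of 0.05 gave 54, 31 and 36 calls for these terms and 2 for line over both sexes. For the 3 terms these were 76.1%, 43.7% and 50.7% of the members, against 47.4%, 18.6% and 25.4% of all transcripts. limma gave 3 for line in females (4.23%, against 8.60% of all transcripts) and 27 for line over both sexes, which it tests against the error alone. Leaving out 1 replicate, which leaves fewer arrays, gave 11 to 13 calls for line in males, 1 to 4 in females and 4 to 6 for sex by line, with the sex count at 70, no member higher in males, none called for line over both sexes, and the median difference between -1.25 and -1.22. Leaving out 1 line gave 19 to 24, 5 to 9 (5 without P26) and 7 to 15 calls for these 3 line terms, the sex counts at 70 and 0, line over both sexes at 0, and the median difference between -1.25 and -1.23. The replicate block gave 35 calls for line in males (49.3%, against 32.8% of all transcripts) and 11 in females (15.5%, against 9.43%). It gave 19 for sex by line (26.8%, against 12.8%) and 0 for line over both sexes. The main calls of each term were among them (24, 9 and 14), and the numbers of the samples mark no known pairing. Of 15 variance shares named as the largest of a term, all stayed called after centring on the array median and with the block, and 17 of 60 values without 1 replicate were no longer called. Small line differences are limited by the 4 arrays in each group.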
